A study of Mus musculus with 31 samples.

Results

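Between 4 and 6 weeks of age the skin of wild type mice gained RNA of genes that build the hair fibre and its sheath, and lost RNA of some genes of the collagen matrix, among them elastin, of collagen folding and export, and of imprinted loci. The genes of collagen folding and export and of imprinted loci were listed after some had been seen to fall, so their counts are descriptions. Which genes passed the test depended strongly on the arrays used. Compared here were the 4 arrays of wild type skin at 6 weeks and the 3 arrays of wild type skin at 4 weeks, 7 of the 31 arrays of the series, chosen by their labels. Each array holds RNA of the skin of a female C57BL/6J mouse. The other arrays are wild type skin at 2, 8 and 10 weeks (3 arrays each) and skin of female cpdm mice, strain C57BL/KaLawRij-Sharpincpdm/Sharpincpdm RijSunJ, homozygous for a Sharpin mutation that leads to chronic dermatitis (3 arrays at each of the 5 ages). The cpdm arrays of 4 and 6 weeks serve below to ask whether the change with age differed between the genotypes. The mutant belongs to another C57BL substrain, so substrain and mutation cannot be told apart. The labels name neither the body site of the skin nor any treatment.

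The hair follicle alternates between growth (anagen), regression (catagen) and rest (telogen). In growth, matrix cells around the dermal papilla divide and form the shaft, made of hair keratins cross-linked with keratin-associated proteins, and the inner root sheath, made of its own keratins and trichohyalin. Wnt signals favour entry into growth, BMP signals hold follicles at rest and also accompany shaft differentiation, and FGF5 is known for ending growth. Melanocytes of the bulb make pigment during growth, and in mice the fat layer and the dermis also change with the cycle.

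Values are log2 signals, as deposited, and a difference is the mean at 6 weeks minus the mean at 4 weeks, so that 1 unit is a doubling. Each difference is given with ± its standard error (SE), from a limma model of all 31 arrays, with n = 4 arrays at 6 weeks and n = 3 at 4 weeks. A gene is said to have risen or fallen, or to be called, where limma's p, adjusted by Benjamini-Hochberg over all 19938 genes, was below 0.05. Arrays of a group are distinct mice as far as the design text says. The number of arrays limits the precision. An exact permutation test of 4 against 3 arrays cannot go below a two-sided p of 0.0571, so none is given for single genes.

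The 7 arrays had the keratinocyte and fibroblast RNA of skin. Krt5 lay at 12.14 to 12.65, Krt14 at 11.4 to 12.39 and Col1a1 at 12.66 to 13.42. Across genes, arrays of the same age correlated at r = 0.973 to 0.994 and arrays of different ages at 0.960 to 0.992, so the ages do not separate by overall likeness. The 6 week arrays differed among themselves, and the values below are therefore given array by array, in the order of the replicate numbers.

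Of 19938 genes 493 were called (2.47%), of which 194 rose (0.973%) and 299 fell (1.5%). The rises were fewer and larger. A difference of 2 or more was found for 78 of the genes that rose, and 51 of these 78 were hair keratins, keratin-associated proteins or root sheath genes. Actc1 was the 1 gene that fell by as much. The groups did not overlap for 169 of the genes that rose and 278 of those that fell. Over all genes, called or not, the 6 week arrays lay above all 4 week arrays for 5.43% and below all of them for 7.21%. The median difference of all genes was -0.015. All 493 called genes kept their sign when any 1 of the 7 arrays was left out, but only 27 kept their call each time, 26 that fell and 1 that rose (Sprr1a). The calls of hair genes in particular depended on which arrays were used.

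**Figure D1:**
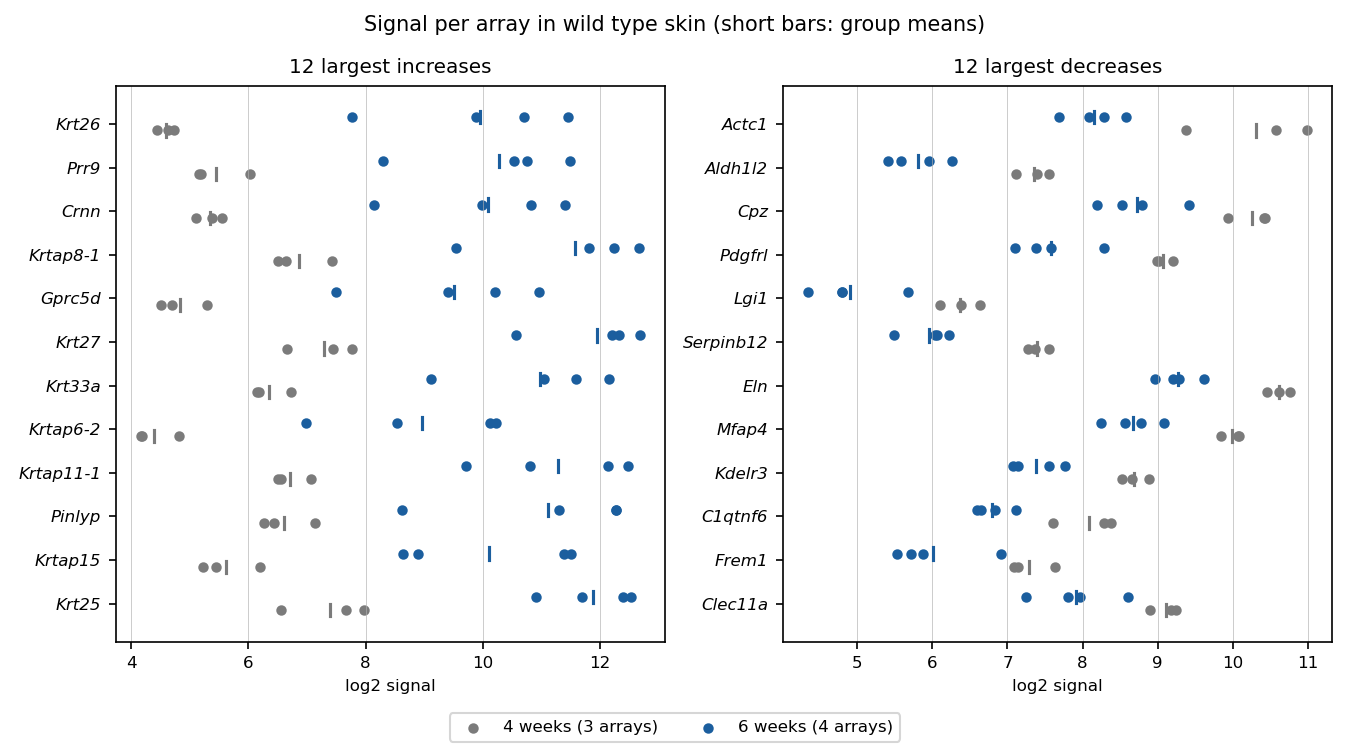
Log2 signal (x axis) of the 12 named genes with the largest rise (left) and the 12 with the largest fall (right), each point an array of wild type skin, grey at 4 weeks (3 arrays) and blue at 6 weeks (4 arrays), with short bars at the group means. The 6 week arrays of hair genes spread widely, as for Krt26 from 7.77 to 11.46, while those of Eln lay between 8.96 and 9.62.

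The largest rise was that of Krt26, a keratin of the inner root sheath. Its signal was 4.73, 4.44 and 4.63 at 4 weeks and 10.71, 7.77, 11.46 and 9.88 at 6 weeks. All 6 week arrays lay above all 4 week arrays, and replicate 2 was the lowest of them. The difference was 5.36 ± 1.15 (limma, adjusted p = 0.0198), a ratio of 40.9 between the means. The other 11 of the 12 largest rises were the shaft keratin Krt33a (4.63), the root sheath keratins Krt27 (4.65) and Krt25 (4.48), the keratin-associated proteins Krtap8-1 (4.71), Krtap6-2 (4.58), Krtap11-1 (4.58) and Krtap15 (4.49), Prr9 (4.82), a proline-rich protein, Crnn (4.75), a relative of trichohyalin, Gprc5d (4.68), an orphan receptor, and Pinlyp (4.51).

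All 13 measured hair shaft keratins had a higher mean at 6 than at 4 weeks, by 1.42 to 4.63. They are the intermediate filament proteins of the fibre. Of these, 9 rose (adjusted p = 0.02 to 0.0428): Krt31, Krt33a, Krt33b, Krt34, Krt36, Krt82, Krt84, Krt86 and Krt87. The median difference was 2.67. Krt31, an acidic keratin of the cortex, had 5.96, 6.06 and 5.59 at 4 weeks and 9.95, 7.65, 10.84 and 9.19 at 6 weeks, a difference of 3.54 ± 0.86 (adjusted p = 0.0304). Its groups were more than 1 unit apart. Krt35, which is made early in the shaft, had 5.85, 6.33 and 5.74 against 9.9, 8.18, 10.06 and 8.42, and missed the threshold (3.17 ± 0.88, adjusted p = 0.0522). Krt39 was the 1 member whose groups overlapped, since 6 week replicate 2 (4.89) lay below 4 week replicate 1 (4.91).

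The 4 arrays of 6 weeks did not rank alike for every shaft keratin. Krt84 stood at 6.7, 5.56, 8.82 and 10.26 and Krt36 at 5.77, 5.17, 6.59 and 7.43, so that replicate 4 was the highest for both. For Krt35 replicate 4 (8.42) lay well below replicates 1 (9.9) and 3 (10.06). Over the list, the mean signal was 5.98, 5.92 and 5.88 at 4 weeks and 8.97, 7.06, 9.81 and 8.91 at 6 weeks.

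Keratin-associated proteins form the matrix between the keratin filaments. All 44 measured members had a higher mean at 6 weeks, 34 of them rose and none fell, and the median difference was 2.96. Many of these genes lie in tandem families of near-identical sequence, so their probe sets may share signal and single members are uncertain. Krtap6-3, of a glycine and tyrosine rich family, had 3.74 in each 4 week array and 7.28, 4.95, 10.17 and 10.21 at 6 weeks (4.41 ± 0.87, adjusted p = 0.0131). Krtap8-1 had 7.43, 6.51 and 6.64 against 12.23, 9.55, 12.67 and 11.81 (4.71 ± 1.02, adjusted p = 0.02). In both genes every 6 week array exceeded every 4 week array. Replicate 4 lay within 0.1 of replicate 3 for Krtap6-3 and for Krtap6-2 (10.13 and 10.23), and lay well below it for Krtap15 (11.38 and 8.9). The 10 members that were not called ran from Krtap13 (0.08, adjusted p = 0.698) to Krtap1-4 (3.04, adjusted p = 0.054).

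Of 16 genes of the inner root sheath and companion layer 13 rose, with a median of 3.93. Trichohyalin (Tchh), the cross-linked protein of the sheath and medulla, had 8.53, 7.82 and 7.56 at 4 weeks and 12.75, 10.97, 13.11 and 12.51 at 6 weeks, a difference of 4.36 ± 0.93 (adjusted p = 0.0198). Its lowest 6 week array was more than 2 units above the highest 4 week array. Krt71 rose by 4.34 ± 0.99, Krt72 by 4.22 ± 1.04, Krt73 by 4.17 ± 1.05 and Krt75, the keratin of the companion layer, by 2.44 ± 0.53. Padi3, which converts arginines of trichohyalin to citrulline, rose by 3.7 ± 0.88, and Cst6, a cysteine protease inhibitor, by 0.8 ± 0.21. The 3 members that missed the threshold were Krt28 (3.52 ± 1.12, adjusted p = 0.0851), the transglutaminase Tgm3 (0.26 ± 0.43, adjusted p = 0.781) and the protease Ctsl (0.3 ± 0.12, adjusted p = 0.168).

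Together these 3 lists hold 73 genes, of which 56 rose, none fell and 66 had no overlap between the ages. They made up 28.9% of all genes that rose. Within the 6 week group, replicate 2 was the lowest array for 71 of the 73 genes and replicate 3 the highest for 58. The median standard deviation of the 73 genes was 1.27 at 6 weeks and 0.238 at 4 weeks, against 0.137 and 0.125 over all genes. The calls rest on 1 estimate of spread shared by all groups, whereas the spread of these genes differed between the ages. A limma fit to the 7 arrays alone called 2 shaft keratins, 8 keratin-associated proteins and 7 sheath genes, and a fit to the wild type arrays of all ages called none of the 73. Without 4 week replicate 2 or 3, or 6 week replicate 3, no member of the 3 lists was called. Without 6 week replicate 1, 4 keratin-associated proteins were called and no other member. Without 4 week replicate 1 the counts were 1, 10 and 6 for shaft keratins, keratin-associated proteins and sheath genes, without 6 week replicate 4 they were 1, 11 and 5, and without 6 week replicate 2 they were 13, 42 and 15. The median difference of the 73 genes stayed between 2.81 and 3.73 in these fits. In bulk skin, more cells of a type and more RNA per cell cannot be told apart.

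**Figure D2:**
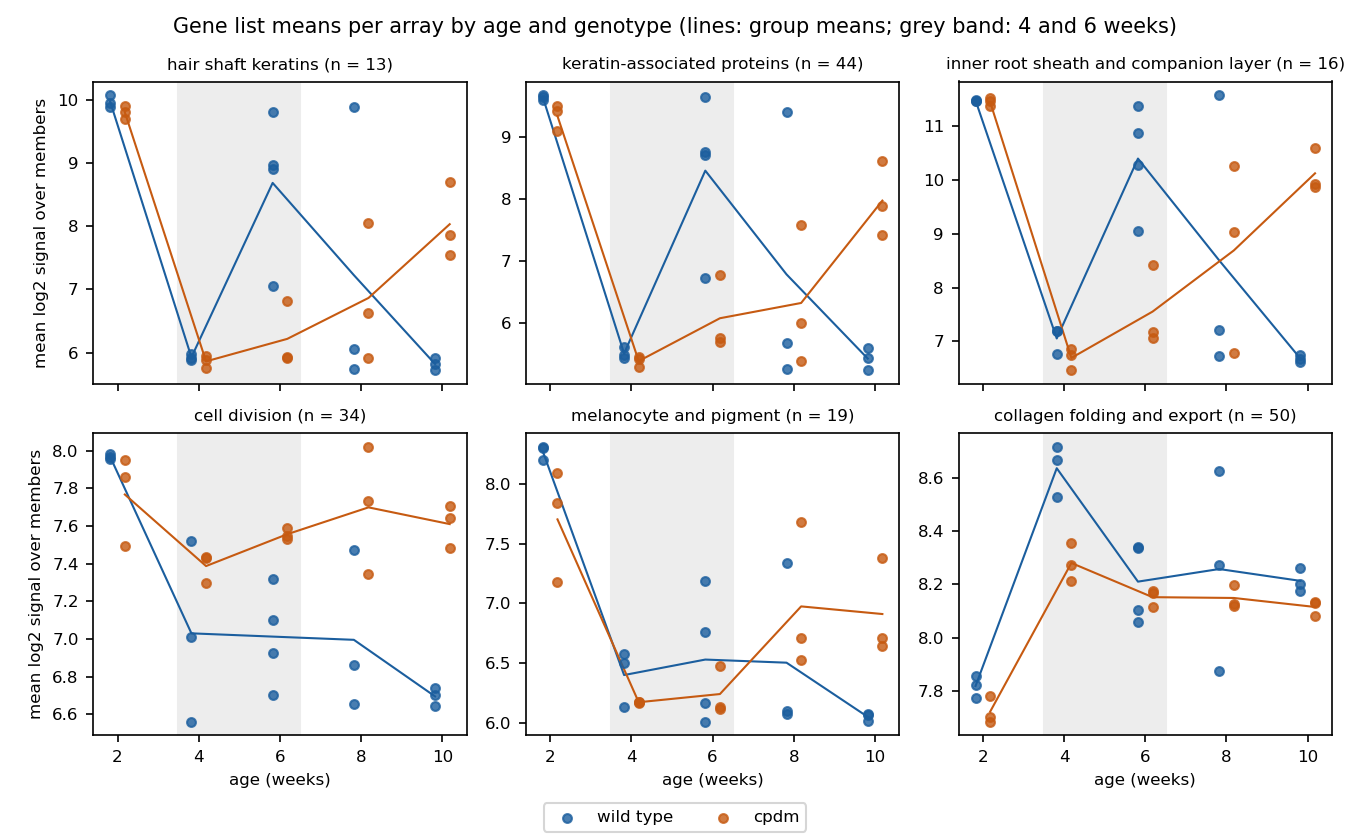
Mean log2 signal over the members of 6 gene lists (y axis) in each of the 31 arrays by age in weeks (x axis), wild type in blue and cpdm in orange, lines joining the group means, with the 4 and 6 week ages shaded. The hair lists of wild type skin were high at 2 weeks, low at 4 and 10 weeks and spread out at 6 and 8 weeks, while cell division and pigment means overlapped between 4 and 6 weeks.

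The ages outside the comparison show where these levels lie, as a description. The shaft keratin mean was 9.89 to 10.08 in the 3 wild type arrays of 2 weeks. It was 5.73, 6.05 and 9.89 at 8 weeks and 5.73 to 5.91 at 10 weeks. The 4 week arrays were thus at the level of the 10 week arrays. The highest 6 week array approached the 2 week arrays and the other 3 lay between. Krt26 followed the same order, with 11.22 to 11.4 at 2 weeks, 4.71, 5.01 and 11.63 at 8 weeks and 4.49 to 4.66 at 10 weeks.

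Before the start of many of these genes stand the letters of a TATA box, the short promoter element that positions transcription. The 80 bases before the annotated start are shown for 4 of 7 picked genes with large rises. These 4 were chosen after the position of the motif was seen. The strand shown is the coding strand, which reads like the RNA, from 5′ to 3′, with the letters TATAAA in capitals. All 4 lie on the minus strand of GRCm38.p6, and the sequences are those of RefSeq.
Krt26, chr11:99337966-99338045: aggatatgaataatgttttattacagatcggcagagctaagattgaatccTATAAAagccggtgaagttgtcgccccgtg
Krtap8-1, chr16:89487953-89488032: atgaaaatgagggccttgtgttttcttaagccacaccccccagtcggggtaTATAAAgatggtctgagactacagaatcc
Krtap11-1, chr16:89571184-89571263: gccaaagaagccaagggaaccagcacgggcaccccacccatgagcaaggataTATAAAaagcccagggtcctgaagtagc
Prr9, chr3:92123948-92124027: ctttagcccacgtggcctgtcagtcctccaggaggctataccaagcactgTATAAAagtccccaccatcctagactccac
The motif starts 30 bases before the start of Krt26, 29 before that of Krtap8-1, 28 before that of Krtap11-1 and 30 before that of Prr9. In the other 3 it starts elsewhere, 15 bases before the start of Krt27, 40 before that of Krt71 and 49 before that of Krtap6-2. The 7 genes were picked without a stated rule and all hold the motif, so they do not stand for all hair genes. Among the 73 genes 63 had a promoter window in the table. Of these windows 41 (65.1%) held TATAAA within the 60 bases before the start on the coding strand. The share was 70.0% for keratin-associated proteins, 55.6% for shaft keratins and 57.1% for sheath genes. Over all windows of genes tested it was 3.06%, among 18 windows of collagen matrix genes 5.56%, and among 28 windows of cell division genes 0. Among 30 windows of cornified layer genes it was 30.0%, and among 36 windows of Wnt pathway genes 8.33%. Of 25 windows of skeletal muscle genes 4 held the motif, and of 23 windows of BMP and activin genes 0. A share above that of all genes tested was thus not particular to hair genes. On the other strand the motif, TTTATA when read on the coding strand, was in 1.59% of the hair windows and 1.07% of the windows of genes tested. Neighbouring family members share sequence, so these windows are not independent. A match is a description of letters and shows neither use of the site nor a cause.

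Of 29 regulators and late products of the hair matrix and shaft 6 rose and none fell, with a median of 0.63. Those called were Dsg4 (3.86 ± 0.91), the desmoglein of the shaft, S100a3 (3.19 ± 0.8), a cuticle calcium binder, Psors1c2 (2.84 ± 0.71), Ly6g6d (2.15 ± 0.54), Foxn1 (1.51 ± 0.36), the transcription factor lost in nude mice, and Gsdma (1.3 ± 0.32), a gasdermin. Foxn1 had 6.25, 6.01 and 6.01 at 4 weeks and 7.73, 6.87, 8.32 and 7.47 at 6 weeks (adjusted p = 0.0281), with no overlap. None of the 6 remained called without any 1 of the 4 week arrays or of 6 week replicates 1, 3 and 4, and 16 of the 29 were called without 6 week replicate 2.

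Other factors of the matrix were apart between the ages and missed the threshold. Msx2, a homeobox factor of matrix and shaft, had 5.49, 6.07 and 5.57 against 8.12, 6.73, 8.2 and 7.1 (1.83 ± 0.54, adjusted p = 0.0666). Hoxc13, which drives hair keratin genes, had 5.88, 6.2 and 5.97 against 8.03, 6.61, 8.63 and 7.8 (1.75 ± 0.56, adjusted p = 0.0851). Dlx3 differed by 1.66 ± 0.51 (adjusted p = 0.0726) and the vitamin D receptor Vdr by 0.69 ± 0.19 (adjusted p = 0.0573). Lef1, the Wnt effector of the matrix, had 6.75, 7.1 and 6.85 against 8.21, 7.46, 7.56 and 6.56, so the groups overlapped (0.55 ± 0.46, adjusted p = 0.537).

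The signalling lists moved far less than the structural genes. Among 48 Wnt pathway genes none rose and 2 fell, with a median of -0.01. Those that fell encode secreted modulators of Wnt signals, Sfrp2 (-1.37 ± 0.37, adjusted p = 0.0487) and Dkk3 (-0.41 ± 0.11, adjusted p = 0.039). Sfrp2 had 8.2, 9.51 and 9.48 at 4 weeks and 7.57, 8.36, 7.34 and 7.51 at 6 weeks, where replicate 2 lay above the lowest 4 week array. Both calls ended without 4 week replicate 2 or 3 or 6 week replicates 1, 3 or 4 (adjusted p up to 0.191 for Sfrp2 and 0.166 for Dkk3), and that of Dkk3 also without 4 week replicate 1. Among the ligands, Wnt5a (0.56 ± 0.37), Wnt11 (0.7 ± 0.26) and Wnt10b (0.05 ± 0.15) were not called. The target gene Axin2 had 7.64, 7.4 and 7.49 against 7.35, 7.59, 7.01 and 6.86 (-0.31 ± 0.15, adjusted p = 0.243), with overlap.

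Of 28 BMP and activin genes 2 rose and none fell, with a median of 0.16. Inhbb, the activin B subunit, had 6.51, 6.18 and 6.22 at 4 weeks and 6.95, 6.63, 7.88 and 7.58 at 6 weeks (0.96 ± 0.22, adjusted p = 0.0246). Id4, an inhibitor of helix-loop-helix factors, differed by 0.77 ± 0.2 (adjusted p = 0.037), and its groups overlapped. Without 4 week replicate 2 or 3 or 6 week replicate 3 or 4 neither was called, with adjusted p up to 0.125 for Inhbb and 0.176 for Id4. Id4 was also not called without 6 week replicate 1. Of the BMP ligands and receptors, Bmp8a had 0.81 ± 0.23 (adjusted p = 0.056), Bmp6 0.26 ± 0.1 and Bmpr1a 0.35 ± 0.14, and Bmp4, Bmp2 and the antagonist Nog had 0.13, 0.06 and 0.27. The inhibitory factors Smad6 (0.75 ± 0.26), Smad7 (0.73 ± 0.26) and Bambi (1.02 ± 0.44) had all 6 week arrays above all 4 week arrays without being called.

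No gene of 14 in the hedgehog list was called, with a median of -0.08. Shh, the ligand made by the matrix, had 5.22, 5.85 and 5.97 against 6.29, 6.05, 6.1 and 5.85 (0.39 ± 0.2). Gli1, a target of the pathway, had 7.21, 8.41 and 7.7 against 7.54, 7.88, 6.48 and 6.61 (-0.65 ± 0.3, adjusted p = 0.224). Its 4 and 6 week arrays overlapped, and 6 week replicates 3 and 4 lay below all others. None of 21 Notch and Eda genes was called, with Notch1 (0.5 ± 0.16, adjusted p = 0.0778) and its ligand Jag1 (0.48 ± 0.16, adjusted p = 0.0989) nearest to it.

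Among 35 FGF, EGF, IGF and PDGF genes the fetal growth factor Igf2 fell and none rose. Igf2 had 6.92, 7.74 and 7.6 at 4 weeks and 6.31, 6.48, 6.37 and 6.45 at 6 weeks (-1.02 ± 0.18, adjusted p = 0.00587), a ratio of 2.02. The groups did not overlap, and the call ended without 4 week replicate 2 (adjusted p = 0.0716). Fgf5 had 5.73, 5.51 and 5.61 against 7.18, 5.75, 7.03 and 6.13 (0.91 ± 0.34, adjusted p = 0.135), without overlap. Fgf7, made by the papilla, differed by -0.17 ± 0.24 and Igf1 by -0.69 ± 0.3, both with overlap.

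Of 13 factors known from catagen Tgfb3 fell (-0.94 ± 0.2, adjusted p = 0.02) and none rose. Tgfb3 had 8.35, 8.66 and 8.37 against 7.53, 8.2, 7.11 and 7.26, and was not called without 4 week replicate 2 or 3 or 6 week replicates 1, 3 or 4 (adjusted p up to 0.11). Thbs1, a thrombospondin, showed the widest split of this list, with 9.05, 8.93 and 9.27 at 4 weeks and 9.56, 8.9, 11.37 and 11.42 at 6 weeks (1.23 ± 0.44, adjusted p = 0.123). Its 6 week replicates 3 and 4 lay about 2 units above replicates 1 and 2. The corepressor Hr was likewise higher in replicates 3 and 4 than in 1 and 2, with 9.81, 9.54, 10.61 and 10.47 at 6 weeks (0.61 ± 0.2, adjusted p = 0.0958).

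Of 23 markers of follicle stem cells and the hair germ 2 rose. Sox9, which marks bulge and outer root sheath, had 8.31, 8.44 and 8.37 at 4 weeks and 9.17, 8.64, 9.83 and 9.84 at 6 weeks (1.0 ± 0.26, adjusted p = 0.0421). Foxp1 rose by 0.43 ± 0.11 (adjusted p = 0.0423). Neither kept its call without 4 week replicate 2 or 3 or 6 week replicates 1, 3 or 4 (adjusted p up to 0.193 and 0.202), and Sox9 also lost it without 4 week replicate 1. Lgr5 was at 7.88 and 7.9 in 6 week replicates 1 and 2 and at 8.84 and 9.06 in replicates 3 and 4, against 7.98, 8.21 and 7.86 at 4 weeks (0.4 ± 0.27, adjusted p = 0.415). The bulge markers Krt15 (-0.04 ± 0.18) and Cd34 (-0.37 ± 0.21) overlapped between the ages.

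No gene of 24 in the list of the dermal papilla and dermal sheath was called, with a median of -0.11. Corin, a papilla protease, had 5.55, 5.72 and 5.76 against 6.55, 5.75, 6.33 and 6.81 (0.68 ± 0.21, adjusted p = 0.075). The papilla markers Alpl (-0.07 ± 0.1), Sox2 (0.07 ± 0.1) and Vcan (-0.55 ± 0.28) overlapped between the ages.

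**Figure D3:**
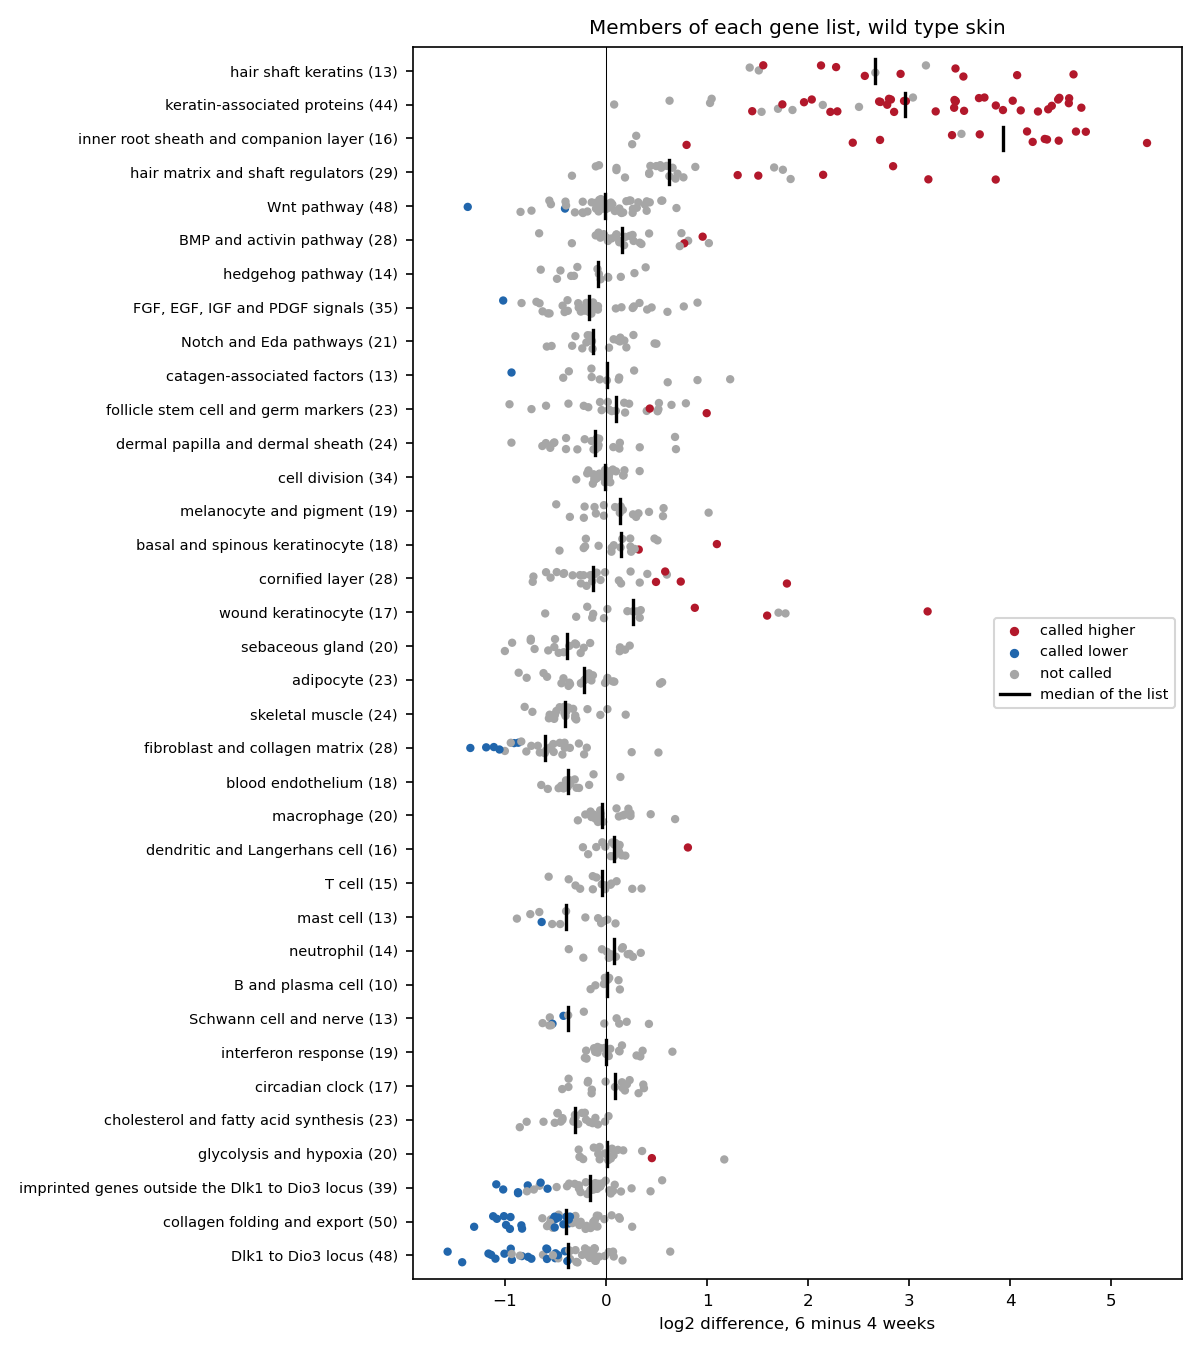
Log2 difference at 6 minus 4 weeks in wild type skin (x axis) of each member of the gene lists (rows, with the number of members), red where called higher, blue where called lower and grey where not called, with black bars at the list medians. Medians of the 3 structural hair lists lay at 2.67, 2.96 and 3.93, whereas those of the Wnt, BMP, hedgehog, T cell and cell division lists lay between -0.08 and 0.16.

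Cell division and pigment genes did not follow the hair keratins. None of 34 cell division genes was called, and their differences ran from -0.29 to 0.33 with a median of -0.01. The mean of the list was 6.56, 7.52 and 7.01 at 4 weeks and 7.1, 7.32, 6.7 and 6.93 at 6 weeks, so the highest of the 7 values was a 4 week array. Mki67, the proliferation antigen, had 7.8, 9.05 and 8.32 against 8.77, 8.98, 7.8 and 7.95. It and the pigment enzymes in the next sentences were chosen after their values were seen.

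None of 19 melanocyte and pigment genes was called, with a median of 0.14. Their mean was 6.13, 6.57 and 6.5 at 4 weeks and 7.19, 6.76, 6.16 and 6.01 at 6 weeks. Dct, an enzyme of melanin synthesis, had 7.25, 8.69 and 8.48 against 8.9, 8.89, 6.36 and 6.44 (-0.49 ± 0.57, adjusted p = 0.674). Tyrp1 had 6.98, 8.11 and 8.0 against 9.22, 8.54, 6.12 and 6.06. In both genes 6 week replicates 1 and 2 were the highest and replicates 3 and 4 the lowest of the 7 arrays. For hair keratins the 6 week replicates fell into another order, since replicate 3 was mostly the highest and replicate 2 the lowest.

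Genes of the interfollicular epidermis changed little apart from a few. Of 28 cornified layer genes 4 rose: Sprr1a (1.79 ± 0.29, adjusted p = 0.00279), a small proline-rich envelope protein, the protease Klk7 (0.59 ± 0.14), corneodesmosin Cdsn (0.5 ± 0.13) and the transglutaminase Tgm1 (0.74 ± 0.2). The list median was -0.13. Sprr1a had 10.77, 10.58 and 10.47 against 12.49, 11.5, 12.89 and 12.71, with no overlap, and kept its call without any 1 of the 7 arrays. Klk7, Cdsn and Tgm1 each lost theirs without 4 week replicate 2 or 3 or 6 week replicates 1, 3 or 4, where adjusted p ran up to 0.209. Of 18 basal and spinous genes Dsp (0.32 ± 0.08) and Sfn (1.1 ± 0.28) rose, and both lost their calls without 4 week replicate 2 or 3 or 6 week replicates 1, 3 or 4 (adjusted p up to 0.171).

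Of 17 genes listed for wounded epidermis 3 rose, which are also genes of the follicle's outer layers. Gjb2, connexin 26, had 6.75, 7.48 and 6.67 at 4 weeks and 10.87, 8.99, 11.02 and 9.72 at 6 weeks (3.18 ± 0.66, adjusted p = 0.015). Krt6a rose by 1.6 ± 0.36 and Krt17 by 0.88 ± 0.21. Without 6 week replicate 3 their adjusted p was 0.0752, 0.115 and 0.135. All 3 also lost their calls without 4 week replicate 2 or 3 or 6 week replicate 1, and Krt6a and Krt17 without 6 week replicate 4.

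The genes that fell were led by Actc1, cardiac actin, which is also made by immature skeletal muscle. It had 9.38, 10.58 and 10.99 at 4 weeks and 8.28, 8.58, 7.69 and 8.08 at 6 weeks (-2.16 ± 0.32, adjusted p = 0.00186), a ratio of 4.47. The other 11 of the 12 largest falls were Aldh1l2 (-1.55), a mitochondrial folate enzyme, the carboxypeptidase Cpz (-1.53), Pdgfrl (-1.49), Lgi1 (-1.47), the epidermal serpin Serpinb12 (-1.45), elastin Eln (-1.34), the elastic fibre protein Mfap4 (-1.33), Kdelr3 (-1.3), a receptor that returns proteins to the endoplasmic reticulum, C1qtnf6 (-1.29), the basement membrane protein Frem1 (-1.28) and Clec11a (-1.2). Of these 12, Actc1, Aldh1l2, Pdgfrl, Eln, Mfap4 and C1qtnf6 kept their calls without any 1 of the 7 arrays. Serpinb12 lost its call without 6 week replicate 3 (adjusted p = 0.0507). The other 5 lost theirs more often, with adjusted p up to 0.146. Of the 7 omissions, Frem1 kept its call in 5, Cpz in 4, Kdelr3 in 3, Clec11a in 2 and Lgi1 in 1.

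The 24 listed skeletal muscle genes, which include no microRNA gene, did not fall with Actc1 past the threshold. None of 24 was called, with a median of -0.41. Of these, 22 lay below 0, as did 10692 of all 19938 genes. The list mean was 11.14, 10.86 and 10.9 at 4 weeks and 10.81, 11.04, 10.04 and 10.42 at 6 weeks. The groups overlapped and 6 week replicates 3 and 4 were the lowest. The part of muscle in the fall of Actc1 was not tested.

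Of 28 genes of the collagen matrix and its fibroblasts 6 fell and none rose, with a median of -0.60. Eln had 10.46, 10.61 and 10.76 at 4 weeks and 9.21, 9.62, 8.96 and 9.28 at 6 weeks (-1.34 ± 0.18, adjusted p = 0.00113), a ratio of 2.54 with no overlap. The others called were the microfibril genes Mfap2 (-1.05 ± 0.23) and Fbn2 (-1.19 ± 0.32), the cross-linking enzyme Lox (-1.11 ± 0.25), and Col5a1 (-0.91 ± 0.21) and Col5a2 (-0.87 ± 0.21), chains of the collagen that starts fibrils. Col5a2 and Fbn2 are named after their values were seen. The main fibrillar collagen Col3a1 had 12.57, 12.85 and 12.87 against 11.92, 12.39, 11.99 and 12.33 (-0.61 ± 0.2, adjusted p = 0.0878). It, too, was chosen after its values were seen. The list count was 1, namely Eln, without 4 week replicate 2 or 3 or 6 week replicate 1 or 3, it was 7 without 4 week replicate 1, 5 without 6 week replicate 4, and 13 without 6 week replicate 2.

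A list of 50 genes for the folding, processing and export of collagen was drawn up after several of them had been seen among the called genes, so its count is a description. Of these, 20 fell and none rose, with a median of -0.39. Creb3l1, a transcription factor that drives collagen secretion, had 8.55, 8.88 and 8.82 at 4 weeks and 7.65, 8.03, 7.47 and 7.81 at 6 weeks (-1.01 ± 0.16, adjusted p = 0.00186). Ppic, a prolyl isomerase, fell by 0.99 on the log2 scale, P4ha2, a collagen prolyl hydroxylase, by 1.08, and Sec16b, which organises export sites, by 0.83. Creb3l1 and Ppic kept their calls without any 1 array. The count was 2 without 4 week replicate 2 or 3 or 6 week replicate 3, 3 without 6 week replicate 1, 12 without 6 week replicate 4 and 16 without 4 week replicate 1, and it was 28 without 6 week replicate 2. It was 2 in the fit to the 7 arrays alone and 1 in the fit to the wild type arrays.

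**Figure D4:**
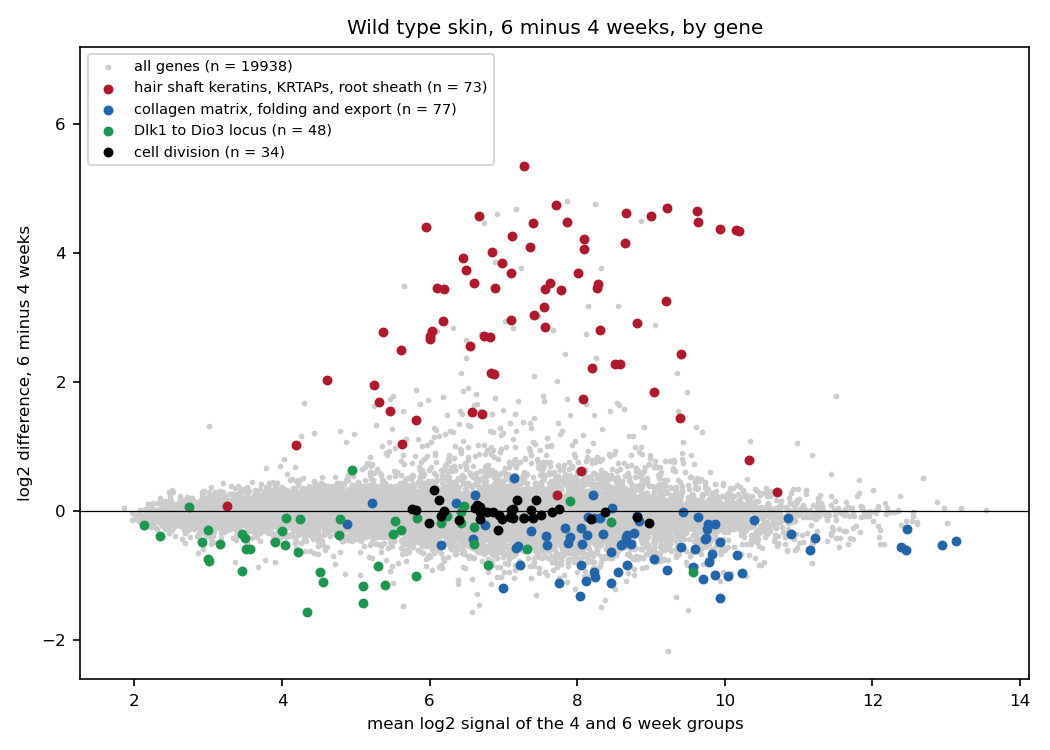
Log2 difference at 6 minus 4 weeks (y axis) against the mean log2 signal of both ages (x axis) for 19938 genes in wild type skin, with hair structural genes in red, collagen genes in blue, genes from Dlk1 to Dio3 in green and cell division genes in black. Hair genes lay above 0 at all signal levels, collagen genes mostly below 0 at higher signal, and genes from Dlk1 to Dio3 mostly below 0 at low signal.

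Imprinted genes, which are expressed from the copy of 1 parent, were listed after some had been seen among the genes that fell. Of 39 such genes outside the Dlk1 to Dio3 locus 7 fell and none rose, with a median of -0.15. Peg3, a zinc finger gene of fetal growth, had 8.89, 9.25 and 9.47 at 4 weeks and 7.69, 8.42, 8.31 and 8.05 at 6 weeks (-1.09 ± 0.16, adjusted p = 0.00186). Igf2, described above, Plagl1 (-0.58 ± 0.1), Zdbf2 (-0.65 ± 0.13), the cell cycle inhibitor Cdkn1c (-0.77 ± 0.17), the growth factor adaptor Grb10 (-0.87 ± 0.2) and Zim1 (-0.87 ± 0.2) were the others. Cdkn1c, Grb10 and Zim1 were chosen after their values were seen. Peg3 alone kept its call without any 1 array. The count was 1 without 4 week replicate 2, 3 without 4 week replicate 3 or 6 week replicate 1, and 4 without 6 week replicate 3, and it was 12 without 6 week replicate 2. It was 0 in the fit to the 7 arrays alone and 1 in the fit to the wild type arrays.

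The imprinted region from Dlk1 to Dio3 on chromosome 12 holds noncoding RNAs and a large cluster of microRNA genes that are transcribed from the maternal copy. This locus was also picked after its genes had been seen among those that fell, and its members are all genes with a value that RefSeq places between its ends. Of 48 genes 19 fell and none rose, with a median of -0.37. The noncoding Rian had 6.22, 5.63 and 6.05 at 4 weeks and 4.48, 4.8, 4.75 and 5.29 at 6 weeks (-1.14 ± 0.23, adjusted p = 0.0146), with no overlap. Meg3, the RNA at the head of the cluster, had 9.72, 10.08 and 10.32 against 8.86, 9.44, 8.82 and 9.27 (-0.94 ± 0.23, adjusted p = 0.0305), again with no overlap. Rian lost its call without 4 week replicate 1 or 3 or 6 week replicate 1 or 3 (adjusted p up to 0.0623), and Meg3 without 4 week replicate 2 or 3 or 6 week replicates 1, 3 or 4 (adjusted p up to 0.142). The genes at the ends of the locus, of which Dlk1 is expressed from the paternal copy, were not called: Dlk1 had -0.18 ± 0.12 and Dio3 0.64 ± 0.33. These 4 genes were chosen after their values were seen.

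Of 40 microRNA genes of the locus 16 fell and none rose, and of 262 elsewhere 8 fell and 1 rose. Since the locus was picked after its genes had been seen to fall, these counts do not test whether it differs. The 8 elsewhere are named after their values were seen. They were Mir133a-1 (-0.75), Mir133a-2 (-0.78), Mir1a-1 (-0.86), Mir1a-2 (-0.28), Mir100 (-0.48), Mir10b (-0.79), Mir672 (-0.33) and Mirlet7c-1 (-0.98). None of the 8 kept its call each time 1 of the 7 arrays was left out. The probe sets are named for microRNA genes, and the mature microRNA was not measured. Mir411 had 3.83, 3.88 and 4.07 at 4 weeks and 2.99, 2.91, 3.07 and 3.01 at 6 weeks (-0.93 ± 0.13, adjusted p = 0.00113), and Mir379 had 3.19, 3.58 and 3.44 against 2.66, 2.62, 2.6 and 2.65 (-0.77 ± 0.13, adjusted p = 0.00449). Both lie near the low end of the scale. The largest falls were those of Mir380 (-1.57 ± 0.3, adjusted p = 0.011) and Mir382 (-1.42 ± 0.28, adjusted p = 0.0124). Mir380 had 5.24, 5.16 and 4.96 against 3.52, 3.94, 3.38 and 3.37, and Mir382 had 5.65, 6.0 and 5.76 against 4.22, 4.76, 4.25 and 4.29. In all 4 genes the ages did not overlap. Mir411 kept its call without any 1 array, Mir379 lost it without 4 week replicate 2 (adjusted p = 0.053), and Mir380 and Mir382 lost theirs without 4 week replicate 2 or 6 week replicate 3 (adjusted p up to 0.0681 and 0.0872).

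Each of these 4 genes has a 5p and a 3p mature sequence, and only 1 of them is shown per gene. The sequences are from RefSeq on the plus strand of GRCm38.p6, with the seed, bases 2 to 8, in capitals.
miR-411-3p, chr12:109710225-109710246: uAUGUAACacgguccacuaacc
miR-379-3p, chr12:109709102-109709123: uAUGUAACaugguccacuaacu
miR-380-3p, chr12:109711842-109711863: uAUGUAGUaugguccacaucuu
miR-382-5p, chr12:109733781-109733802: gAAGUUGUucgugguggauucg
The first pair share the seed AUGUAAC, whereas the 5p sequences of the same genes have the seeds AGUAGAC and GGUAGAC. The 16 genes that fell have 30 mature sequences in the table with 29 different seeds, so AUGUAAC is the 1 seed that occurs more than once among them.

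**Figure D5:**
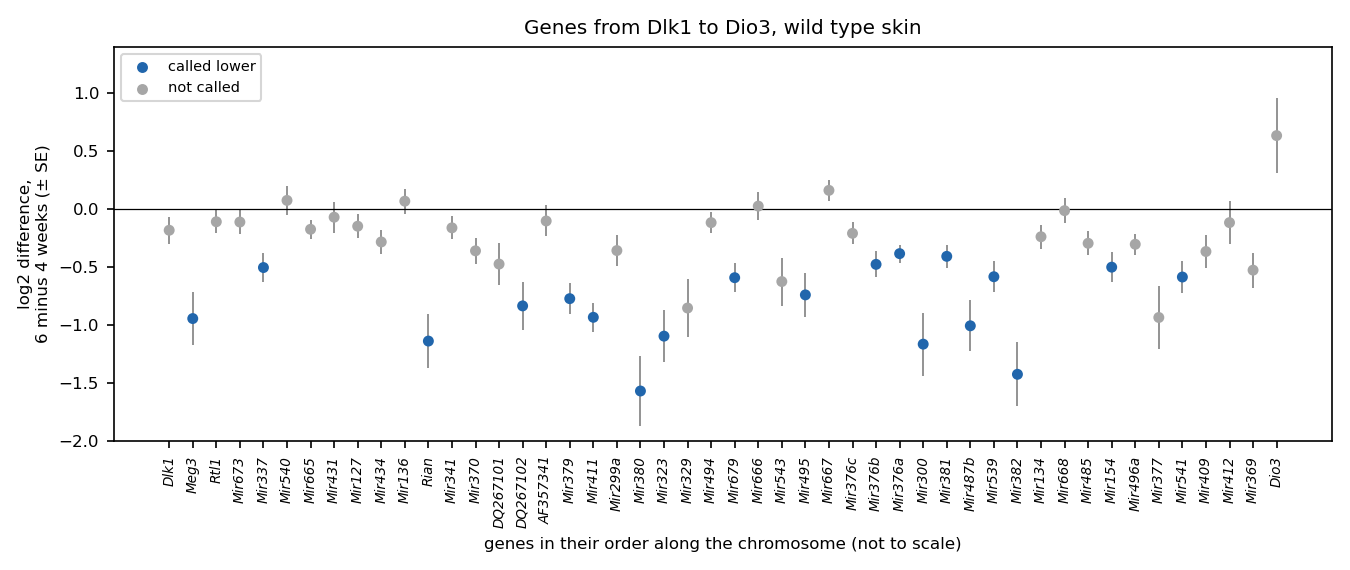
Log2 difference at 6 minus 4 weeks in wild type skin with its SE (y axis) for the 48 genes from Dlk1 to Dio3 in their order along the chromosome (x axis, not to scale), blue where called lower and grey where not called. Of the 48, 43 lay below 0, and the 19 called genes were spread over the inner part of the locus.

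The count over the locus was 22 without 6 week replicate 2, 14 without 4 week replicate 1 and 13 without 6 week replicate 4. It was 4, 5, 6 and 2 without 4 week replicates 2 and 3 and 6 week replicates 1 and 3. When the dimmest 40% of genes were left out, 4 genes of the locus were called, since most of its microRNA genes are among them. Among wild type arrays of other ages, Rian lay at 4.88 to 5.03 at 2 weeks, 4.27 to 5.68 at 8 weeks and 3.87 to 4.62 at 10 weeks, so the 4 week arrays held the highest level except for overlap with 1 array of 8 weeks.

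Other cell types of skin gave few calls. No gene was called among 23 adipocyte genes (median -0.22), 20 sebaceous gland genes (-0.39), 18 blood endothelium genes (-0.37), 20 macrophage genes (-0.04), 15 T cell genes (-0.04), 14 neutrophil genes (0.08), 10 B cell genes (0.01) or 19 interferon response genes (0.00). Cma1, a mast cell chymase, fell (-0.64 ± 0.14, adjusted p = 0.0224), with 6.6, 6.71 and 6.66 against 6.01, 6.34, 5.68 and 6.05, and was the 1 called gene of 13 mast cell genes. The nerve genes Ncam1 (-0.53 ± 0.14) and Mag (-0.42 ± 0.11) fell among 13, Epcam rose (0.81 ± 0.16) among 16 dendritic cell genes, and the glycolytic enzyme Pfkp rose (0.45 ± 0.12) among 20. These 5 calls each ended without 4 week replicate 2 or 3 or 6 week replicate 3, with adjusted p up to 0.209. Cma1, Ncam1, Mag and Pfkp also lost theirs without 6 week replicate 1. Ncam1, Mag and Pfkp lost theirs without 6 week replicate 4 too, and Mag and Pfkp without 4 week replicate 1. Endothelial genes lay below 0 for 17 of 18 members, and cholesterol and fatty acid synthesis genes for 22 of 23, without a call. Over all genes 10692 of 19938 lay below 0. All 6 week arrays lay below all 4 week arrays for 10 of the 18 and 5 of the 23, against 7.21% of all genes.

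Some of these lists moved within the groups. The adipocyte mean was 9.09, 9.01 and 9.07 at 4 weeks and 9.03, 9.29, 8.45 and 8.59 at 6 weeks. The macrophage mean was 7.57, 8.47 and 8.82 at 4 weeks and 7.59, 8.05, 8.73 and 9.01 at 6 weeks, and the interferon response mean had a like spread, 6.41 to 7.72 and 6.53 to 7.8. Fat and muscle RNA was thus lowest in the 6 week replicates 3 and 4, in which pigment RNA was low as well, and macrophage RNA was lowest in replicate 1 of each age. The part of these differences in the changes above was not tested.

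The same ages were compared in cpdm skin, where 303 genes were called between 6 and 4 weeks (1.52%). Of the 73 structural hair genes 1 was called there, and their median difference was 0.55 against 3.04 in wild type skin. Krt26 ranged from 4.36 to 4.97 at 4 weeks and from 4.98 to 7.2 at 6 weeks in cpdm skin. A direct test of the difference between the changes called 53 of 19938 genes (0.266%), and none of the 73 (lowest limma adjusted p = 0.203). For Krt26 the wild type change exceeded that in cpdm by 4.25 ± 1.68 (adjusted p = 0.29). The hair genes are therefore not shown to change differently in the genotypes, nor are they shown to change alike.

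In 50 of the 53 genes that did differ, the change in wild type skin was the lower. The 5 list genes with the lowest p were genes of the cornified layer and of inflamed epidermis that were flat in wild type skin and rose in cpdm skin. Rptn, repetin, had 6.74, 6.5 and 6.37 against 6.55, 6.56, 6.4 and 6.6 in wild type skin (-0.01 ± 0.17) and rose by 2.37 ± 0.19 in cpdm skin, a difference of -2.38 ± 0.26 (adjusted p = 1.51e-05). For Casp14, the caspase of cornification, the difference was -1.48 ± 0.18 (adjusted p = 5.33e-05), for the interleukin Il1f8 -1.77 ± 0.26, for Lce3c -2.02 ± 0.34 and for the stefin Stfa2 -2.3 ± 0.4. Serpinb12 was the 1 gene of the 12 largest falls whose change differed by genotype (-1.86 ± 0.39, adjusted p = 0.0376). Actc1 fell alike in size in both, by 2.16 and 2.15 on the log2 scale, with a difference of -0.01 ± 0.47.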

How the data were processed

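RNA of whole skin was hybridised to Affymetrix mouse gene arrays. The values are log2 signals that the authors deposited after RMA in Affymetrix Expression Console 1.2, per the submitters' processing notes; RMA normalizes over all arrays, so no value is independent of the others. The sources used here name no batch or scan date, and detection calls were not used. Of 35556 probe sets, 21789 had a single gene symbol, and the probe set with the highest mean over the 31 arrays stood for each of 19938 genes. limma 3.58.1 (R 4.3.3) fitted 10 group means to all 31 arrays, with 21 residual degrees of freedom, and gave two-sided p-values with Benjamini-Hochberg adjustment over all genes. The script was tested on simulated data. It called 33 of 50 genes changed by 0.5 and 47 of 50 changed by 1, and 6.25% of its calls were false. Each simulated gene had the same spread in all groups, unlike the hair genes, so this test does not bear on their calls.

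The comparison, the gene lists and the tests were chosen with earlier results of these data known, and 3 of the 37 lists (imprinted genes, collagen folding and export, and the Dlk1 to Dio3 locus) after the values themselves were seen. Named genes are the 12 largest called rises and falls without overlap between the arrays, leaving out clones, gene models and small RNAs, up to 4 members with the lowest p in each list, members of the 12 hair follicle lists by their role, and the 5 list genes with the lowest p for the difference between genotypes. Genes outside this rule were chosen after their values were seen, as said where they are named, apart from Krt5, Krt14 and Col1a1, which check the tissue. Alternatives changed the arrays in the fit, the choice of probe set, the filter on dim genes, the spread estimate, array weights, normalization, the replicate block and the threshold, and left out each array in turn. Promoter and microRNA sequences are from RefSeq, GRCm38.p6.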

Additional observations from a re-analysis of the deposited data

Results flagged for a closer look

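The difference of the age change, wild type minus cpdm, passed limma's adjusted threshold for 6 named genes. It was -2.38 for Rptn, -1.48 for Casp14, -1.77 for Il1f8, -2.02 for Lce3c, -2.3 for Stfa2 and -1.86 for Serpinb12. In the first 5 the cpdm skin rose and the wild type skin did not pass the threshold, while Serpinb12 fell in wild type skin.

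Among the 4 arrays of wild type skin at 6 weeks, 1 array stood apart from the other 3 in 3 of 181 genes and lists examined, by the gap to the nearest array as a share of the range. This share was 0.833 for Il1f8, where replicate 2 was high, 0.87 for Mir382, where replicate 2 was high, and 0.88 for Notch1, where replicate 2 was low. Chance gives such a gap in about 1 of 20 groups, so 3 of 181 is not above it.

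A limma fit to all 35556 probe sets called 85 of 12146 without a gene name (0.7%, 37 higher and 48 lower) and 14 of 1621 that match several genes (0.864%, 11 higher and 3 lower). In the same fit 313 of 21789 probe sets with a single gene were called (1.44%), so both shares were the lower.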

How the results depend on the processing

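All counts here are of genes called. The 493 genes, 194 higher and 299 lower, became 54, 22 and 32 in a fit to the 7 arrays alone, 19, 0 and 19 in the wild type arrays, 2132, 956 and 1176 with array weights, 40, 3 and 37 at adjusted p below 0.01, and 1934, 813 and 1121 without the wild type arrays of 8 weeks, an alternative chosen after seeing the data. In these 5 settings shaft keratins, keratin-associated proteins and sheath genes came to 2, 8 and 7, to 0, 0 and 0, to 13, 42 and 14, to 0, 0 and 0, and to 13, 41 and 14. Collagen matrix genes came to 1, 1, 18, 1 and 18, and the Dlk1 to Dio3 locus to 7, 2, 23, 2 and 25, with 4 when the dimmest 40% of genes were left out. The 20 genes of collagen folding and export came to 2, 1, 31, 2 and 31, and the 7 imprinted genes outside the locus to 0, 1, 12, 3 and 12. The 53 genes that differed between genotypes became 650 with array weights, 20 at adjusted p below 0.01 and 138 without the wild type arrays of 8 weeks. The probe-set mean, quantile normalization, centring and the trend and robust spread kept each of these counts within 1.5 times. The median difference of the 73 hair genes was 3.04 in the fit to the 7 arrays and in that to the wild type arrays. No B cell gene remained once the dimmest 40% of genes were left out, so that list has no value there.

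Leaving out 1 array at a time gave 39 to 2176 genes, 2 to 927 higher and 37 to 1249 lower, 0 to 13 shaft keratins, 0 to 42 keratin-associated proteins, 0 to 15 sheath genes, 1 to 13 collagen matrix genes, 2 to 22 genes of the locus and 20 to 152 genes that differed between genotypes. The lowest count of genes came without 6 week replicate 3 and the highest without 6 week replicate 2.

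Whether replicate numbers pair the samples is not known. Deviations of same-numbered arrays correlated at 0.360, -0.011 and 0.192, and those of differently numbered arrays at -0.356 to 0.352. So few arrays cannot decide the question. With the replicate block 146 genes were called, 15 higher and 131 lower, with 0 shaft keratins, 3 keratin-associated proteins, 0 sheath genes, 5 collagen matrix genes, 13 genes of the locus, 11 genes of collagen folding and export, 6 imprinted genes outside the locus and 36 genes that differed between genotypes.

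Genes that changed sign were uncalled and near 0 or widely spread. When 1 array was left out, Mki67 ran from -0.31 to 0.315, Rptn from -0.0925 to 0.0925, Tyrp1 from -0.79 to 0.2633, Bmp2 from -0.01 to 0.1233, Wnt10b from -0.02 to 0.1433, Alpl from -0.1325 to 0.0425, Casp14 from -0.1725 to 0.0375, Il1f8 from -0.22 to 0.04, Krt15 from -0.1267 to 0.06, Krtap13 from -0.0325 to 0.1375, Sox2 from -0.0225 to 0.1325 and Fgf7 from -0.3667 to 0.01. Mki67 was 0.0189 after quantile normalization and 0.1267 with the replicate block. Rptn was 0.0287 with array weights, 0.0017 after quantile normalization and 0.005 after centring. Tyrp1 was 0.2633 and Bmp2 -0.01 with the block, and Wnt10b -0.0019 with array weights. The cause was not tested.

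The spread among 4 and 3 arrays, and the shared estimate of it, limit these calls, and array number rather than any depth sets the precision.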
